A study of Rattus norvegicus with 30 samples.

Results

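Zinc deficiency was compared with zinc sufficiency in the oesophageal epithelium of rats that carried no gene edit and had received the carcinogen N-nitrosomethylbenzylamine (NMBA). The comparison used the 5 arrays titled as untreated zinc-deficient (ZD) controls and the 5 titled as untreated zinc-sufficient (ZS) controls, of 30 arrays in the series, with 1 array per rat. Male Sprague-Dawley rats entered the diets at 4 weeks of age. ZD rats ate freely, and ZS rats were pair-fed, so that their intake was held to the reduced intake of the ZD rats. Both groups received 4 intragastric NMBA doses of 2 mg/kg at weekly intervals from week 5, and tissue was taken 15 weeks after the first dose. "Untreated" therefore means without the oligonucleotide against miR-31 that other ZD rats of the series received, and there was no group without NMBA. The arrays came from cohorts of 20 ZD and 8 ZS rats, and the labels do not say how the 5 of each were picked or whether tumours were part of the tissue. A separate experiment gave 6 ZD and 4 ZS arrays from male rats of the same strain and NMBA schedule that lacked miR-31 in all cells (miR-31-/-, made with CRISPR/Cas9), which are used here only for comparison.

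Zinc is held in the active site of many enzymes and folds the zinc finger domains of transcription factors. Cells control it with importers of the Slc39a family, exporters of the Slc30a family and metallothioneins, small proteins that bind spare zinc. The oesophagus is lined by a layered squamous epithelium in which basal cells divide and their daughters mature towards the surface, under the influence of retinoic acid, the active form of vitamin A. NMBA is a nitrosamine that cytochrome P450 enzymes convert into a DNA-alkylating agent, and zinc-deficient rats are known for a thickened epithelium and a high yield of NMBA tumours.

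The deposited values are log2 expression levels, on which a difference of 1 is a doubling, and 14217 genes were tested, each through the probe set with the highest mean. Rises and falls on ZD are stated only where the gene's limma p, adjusted over all of them by the Benjamini-Hochberg method, was under 0.05. The tissue expressed defining genes of squamous epithelium on both diets, and those whose levels are given here did not pass. The basal keratin Krt5 averaged 12.57 ± 0.40 on ZD and 12.57 ± 0.27 on ZS, and the basal transcription factor Tp63 10.72 ± 0.11 on ZD and 10.72 ± 0.21 on ZS (SD, n = 5 each). The suprabasal keratins Krt13 and Krt4 averaged 14.06 and 14.20 on ZD and 14.06 and 14.22 on ZS. Muscle RNA was present as well. The mean of 23 skeletal muscle genes ran from 4.89 to 8.48 over the ZD arrays and from 5.53 to 8.24 over the ZS arrays. The mean of 25 smooth muscle genes ran from 6.70 to 7.28 over the ZD arrays and from 7.86 to 9.02 over the ZS arrays, with no overlap.

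In all, 1974 genes differed between the diets (13.9% of those tested). On ZD 986 genes rose (6.94%) and 988 fell (6.95%). Changes of 4-fold or more numbered 20 among the increases and 26 among the decreases. For 1246 of the 1974 the 5 ZD arrays lay wholly above or wholly below the 5 ZS arrays, and 11.4% of all genes tested had groups without overlap. The median difference was 0.0036 over all genes, 0.43 over the genes that rose and -0.54 over those that fell. Where a called gene had further probe sets, 930 of 1087 of them moved the same way. The p-values and SE rest on the spread between rats within groups, pooled over the 6 groups and 30 arrays of the series. For a gene that varies more on ZD than in the other groups, they can be too small. Fewer cells of a type and less RNA per cell cannot be told apart in such bulk tissue.

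The ZD rats did not respond alike. Each array was placed on a line between the mean of the other ZS arrays, at 0, and the mean of the other ZD arrays, at 1, with genes called in a fit that left that array out. The median positions of ZD arrays 11 to 15 were 0.750, 1.08, 0.822, 1.19 and 0.489, and those of ZS arrays 16 to 20 lay between 0.0418 and 0.162. ZD array 15 thus stood about midway between the diets, for the genes that rose (0.509) as for those that fell (0.478). The number of genes called was 2424 without array 15 and 1191 without array 14, the array that stood farthest from ZS. The SD was larger among ZD than among ZS arrays for 59.8% of all genes, for 67.8% of the genes that rose and for 61.1% of those that fell.

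**Figure D1:**
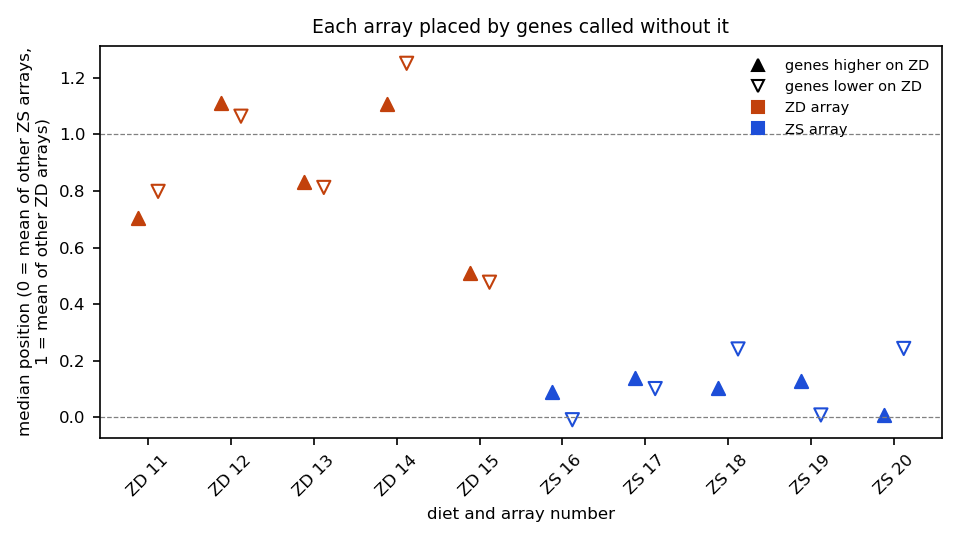
Median position of each of the 10 arrays (x axis: diet and array number) between the mean of the other ZS arrays (0) and the mean of the other ZD arrays (1), over genes called without that array. Filled triangles are genes higher on ZD and open triangles genes lower on ZD. ZD array 15 sits at 0.509 and 0.478, between the groups.

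The genes with the smallest p-values were spread over unrelated functions. Bmp6, a secreted ligand of the bone morphogenetic protein family, had levels of 6.14, 6.11, 5.65, 5.59 and 6.31 on the ZD arrays, against 7.91, 7.42, 7.74, 7.65 and 7.71 on the ZS arrays. It fell by 1.72 (SE 0.18, adjusted p = 3.377e-06), with more than a log2 unit between the groups, although its other probe sets gave between -0.54 and 0.02. Gne, which encodes the enzyme that starts sialic acid synthesis, had 5.59, 5.07, 5.76, 4.95 and 5.58 on ZD, against 6.87, 6.84, 6.47, 6.44 and 6.65 on ZS, and fell by 1.26 (SE 0.14). Alad encodes a zinc-dependent enzyme of haem synthesis, delta-aminolevulinate dehydratase. Its levels were 7.53, 7.41, 7.87, 7.45 and 7.70 on ZD, against 8.74, 8.62, 8.58, 9.32 and 8.59 on ZS. It fell by 1.18 (SE 0.15, adjusted p = 2.91e-05), and each ZD rat was below each ZS rat.

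Tnfrsf17, the plasma cell receptor for survival factors of the tumour necrosis factor family, had 3.81, 3.56, 3.62, 3.48 and 3.97 on ZD, against 6.21, 5.65, 5.92, 6.44 and 5.18 on ZS, and fell by 2.19 (SE 0.25). On ZD arrays 11 to 14 it lay under the lower quartile of the array, which was 3.75 to 3.82. A signal there was not shown to be above background, so the size of the difference is uncertain. The other 8 measured B and plasma cell genes did not pass, and the immunoglobulin joining chain Jchain stood at 1.16 (adjusted p = 0.202). Cxcl14, a chemokine made by epithelium, had 6.32, 7.23, 6.98, 7.36 and 6.02 on ZD, against 5.04, 5.06, 4.64, 4.76 and 4.26 on ZS. It rose by 2.03 (SE 0.25), while a second probe set gave 0.18. Rps6ka6, a kinase of the ribosomal S6 family, had 9.18, 9.35, 9.12, 9.64 and 9.22 on ZD, against 7.47, 7.68, 7.95, 8.05 and 7.79 on ZS, and rose by 1.51 (SE 0.19). The motor protein Myo5a rose by 1.12 (SE 0.14) and the homeobox gene Irx4 by 2.30 (SE 0.27), while a second probe set of Irx4 gave 0.0162.

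**Figure D2:**
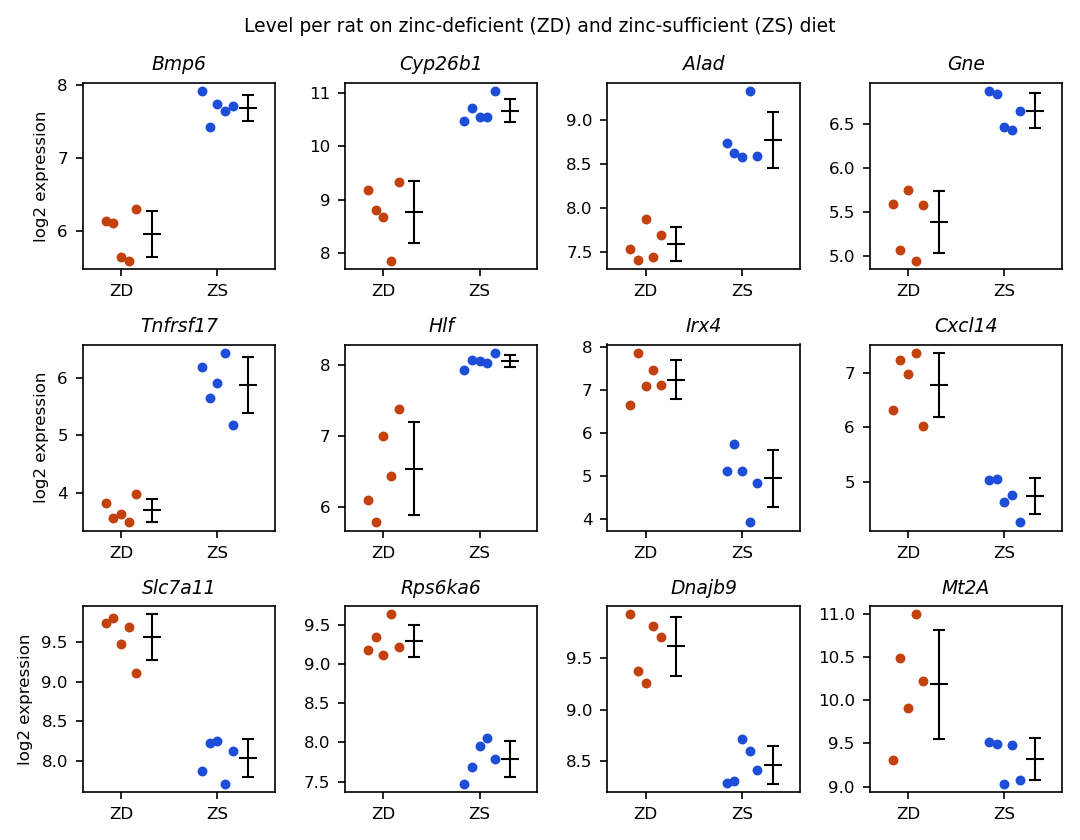
Log2 expression (y axis) of 12 genes on the 5 ZD arrays (left in each panel) and the 5 ZS arrays (right). Points are rats, and bars the mean and SD. In 11 of the panels the groups do not overlap, and in the Mt2A panel they do.

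The largest changes included transporters, channels and enzymes. The carbonic anhydrase Car2, a zinc enzyme, had 10.09, 11.67, 10.52, 10.80 and 8.59 on ZD, against 4.98, 5.64, 5.62, 7.26 and 5.33 on ZS. It rose by 4.56 (SE 0.65), and ZD array 15 was the lowest of its group and ZS array 19 the highest of its own. Among 14 measured carbonic anhydrase genes, 1 other passed, Car5b of the mitochondrion, which fell by 0.52 but lost its call when ZD 13, ZD 14 or ZS 20 was omitted (adjusted p up to 0.0791). Car5b also did not pass when only the groups compared were fitted. P2rx2, an ATP-gated cation channel, had 4.82, 4.78, 3.84, 3.55 and 5.21 on ZD, against 6.74, 6.89, 6.96, 6.44 and 6.33 on ZS. It fell by 2.23 (SE 0.35), and its other probe sets gave between -1.71 and -0.81. Lox, the copper enzyme that cross-links collagen, rose by 1.95 (SE 0.26), and Olfm1, a secreted glycoprotein known from neurons, by 1.81 (SE 0.34). Other large changes were increases of Serpinb3, Krt6c, Stfa2l2, Atp13a5, Sprr1b, Plat and Tmprss11d by 2.04 to 4.15, while Upk1b and Prr15 stood at -2.89 and -2.53.

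Genes of retinoid metabolism fell more often than they rose. Of 35 measured members 9 fell, 1 rose and 25 did not pass, against 6.95% and 6.94% of all genes, and the list median was -0.12. With each array left out in turn, 9 or 10 members fell. Cyp26b1, which breaks down retinoic acid and is itself induced by it, had 9.19, 8.81, 8.67, 7.86 and 9.34 on ZD, against 10.48, 10.72, 10.55, 10.55 and 11.03 on ZS. It fell by 1.89 (SE 0.25, adjusted p = 4.831e-05), and its second probe set gave -1.62. Aox4, an aldehyde oxidase that can make retinoic acid, had 6.27, 5.16, 6.07, 5.07 and 5.64 on ZD, against 10.85, 9.74, 8.40, 10.24 and 8.36 on ZS, and fell by 3.88 (SE 0.73). The groups were separate for both genes.

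The other members that fell were enzymes and 1 receptor. The alcohol dehydrogenases, zinc enzymes that oxidise retinol among other alcohols, changed by -2.77 (Adh6a) and -2.19 (Adh1c). The retinaldehyde dehydrogenases Aldh1a1 and Aldh1a2 fell by 1.22 and 1.06. The retinal reductases Dhrs3 and Dhrs4 fell by 0.67 and 0.87, and the retinoid X receptor Rxrb fell by 0.32. Rbp7, a retinol-binding protein, was the member that rose, by 0.52, and it did not pass without ZD array 15. Smooth muscle level moved with these genes. With each array's smooth muscle mean as a covariate, Cyp26b1 stood at -1.89 (adjusted p = 0.00453), while Adh1c stood at -0.38, Aldh1a1 at -0.39, Aldh1a2 at -0.10 and Aox4 at -1.98 (adjusted p = 0.195). Cyp26b1 did not pass when that fit used arrays of unedited rats only.

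A few enzymes that handle foreign chemicals differed. Of 20 measured P450 and alkylation repair genes, 3 fell and 1 rose (20.0% called, against 13.9% of all genes), and 5 fell without ZD array 15. Cyp2a3, of a P450 family that activates nitrosamines, had 3.94, 4.21, 4.17, 3.92 and 4.45 on ZD, against 7.96, 6.80, 8.13, 4.27 and 7.78 on ZS. It fell by 2.85 (SE 0.67, adjusted p = 0.00553), but ZS array 19 lay within the ZD range. Cyp1b1 had 6.50, 6.35, 5.61, 5.64 and 6.14 on ZD, against 7.16, 7.97, 7.62, 7.56 and 7.73 on ZS, and fell by 1.56 (SE 0.24). The abundant Cyp2f4 fell by 0.95 (SE 0.19). These 3 passed with the smooth muscle covariate, at -3.73, -1.11 and -0.95, but not when that fit used arrays of unedited rats only. The member that rose was Cyp3a9, by 0.46, and its call was lost on omission of any single array other than ZD 13, ZD 15 or ZS 18 (adjusted p up to 0.124). Of 42 genes of glutathione and the Nrf2 response 9 rose and 4 fell. The glutathione transferase Gstm1 had 11.64, 11.46, 11.14, 11.30 and 11.37 on ZD, against 10.28, 9.99, 10.03, 10.14 and 10.28 on ZS, and rose by 1.24 (SE 0.18). Gstm4 rose by 0.65, and the extracellular superoxide dismutase Sod3 fell by 2.12.

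Of 25 measured genes of zinc handling, 5 rose and 1 fell (24.0% called, against 13.9% of all genes), and their median was 0.002. The importer Slc39a10 had 10.85, 10.16, 10.83, 10.24 and 9.48 on ZD, against 8.95, 9.22, 9.08, 9.23 and 9.12 on ZS, and rose by 1.19 (SE 0.27). The importer Slc39a2 had 5.90, 5.75, 5.89, 6.48 and 5.75 on ZD, against 6.98, 6.68, 6.92, 7.05 and 7.17 on ZS, and fell by 1.01 (SE 0.24). The 2 importers thus moved in opposite directions, each without overlap. Slc39a1 rose by 0.19 and the exporter Slc30a7 by 0.38. The call of Slc39a1 was lost on omission of any single array other than ZD 11, ZD 15 or ZS 19 (adjusted p up to 0.125), and that of Slc30a7 on omission of ZD 11, ZD 12, ZD 14, ZS 17, ZS 19 or ZS 20 (adjusted p up to 0.102). Slc39a1 also did not pass when only the groups compared were fitted. The gut zinc importer Slc39a4 (-0.02, adjusted p = 0.944) and Mtf1, the zinc-sensing transcription factor that drives metallothionein genes (0.20, adjusted p = 0.0562), did not pass.

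Both metallothionein genes were higher on ZD. Mt2A had 9.31, 10.49, 9.91, 10.99 and 10.23 on ZD, against 9.52, 9.50, 9.03, 9.48 and 9.07 on ZS, and rose by 0.86 (SE 0.27, adjusted p = 0.0319). Mt1 had 4.77, 5.46, 4.82, 5.73 and 5.52 on ZD, against 4.84, 4.52, 4.64, 4.70 and 4.69 on ZS, and rose by 0.59 (SE 0.17, adjusted p = 0.0212). The groups overlapped, since ZD array 11 lay within the ZS range for both genes and ZD array 13 for Mt1, and ZD array 14 was the highest for both. Neither passed without ZD array 12 or ZD array 14, and without array 14 the differences were 0.66 for Mt2A and 0.47 for Mt1. Without either of those arrays, 1 member of the zinc list rose in place of 5. Mt2A also missed the threshold without ZS array 18 or 20, and Mt1 without ZS array 17. Neither gene passed when only the groups compared were fitted, and Mt2A did not pass when only arrays of unedited rats were fitted.

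The promoters of the 2 genes are shown because metallothioneins are the known targets of Mtf1, which binds the metal response element. They are the 250 bases before the annotated start in RefSeq, build GRCr8, at chr19:10832976-10833225 for Mt1 and chr19:10838709-10838958 for Mt2A, both on the minus strand. Capitals mark matches to TGCNCNC on either strand, a short core that also occurs by chance.
Mt1: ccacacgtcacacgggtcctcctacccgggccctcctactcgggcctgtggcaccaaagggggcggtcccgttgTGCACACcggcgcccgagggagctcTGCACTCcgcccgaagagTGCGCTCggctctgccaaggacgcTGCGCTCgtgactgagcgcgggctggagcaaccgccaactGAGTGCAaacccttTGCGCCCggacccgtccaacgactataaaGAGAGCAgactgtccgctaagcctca
Mt2A: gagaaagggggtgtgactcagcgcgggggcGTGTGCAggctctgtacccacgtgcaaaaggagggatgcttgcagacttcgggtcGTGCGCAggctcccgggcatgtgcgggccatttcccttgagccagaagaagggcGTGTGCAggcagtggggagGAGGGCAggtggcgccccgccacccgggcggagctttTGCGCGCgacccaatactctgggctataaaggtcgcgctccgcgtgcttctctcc
Mt1 held 7 matches and Mt2A 5. Of the 11700 tested genes with a promoter in the table, 0.08% held at least 7 matches and 0.91% at least 5 in the window from 250 bases before to 50 after the start. A single match was held by 60.5% of promoters of genes that rose, 63.8% of those of genes that fell and 60.0% of all.

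Several genes of the endoplasmic reticulum, the compartment in which secreted proteins fold, were higher on ZD. Of 20 measured genes 6 rose and none fell, 19 had an estimate above 0, and the median was 0.27. The number that rose was 4 to 7 with each array left out in turn. Dnajb9, a co-chaperone, had 9.92, 9.37, 9.26, 9.80 and 9.70 on ZD, against 8.30, 8.31, 8.71, 8.60 and 8.42 on ZS, and rose by 1.14 (SE 0.17, adjusted p = 0.000144). The main chaperone Hspa5 had 12.81, 12.25, 12.29, 12.41 and 12.60 on ZD, against 11.68, 11.84, 12.03, 11.71 and 11.52 on ZS, and rose by 0.72 (SE 0.16). Creld2 had 10.88, 9.99, 10.32, 10.37 and 10.66 on ZD, against 9.94, 9.82, 10.03, 9.80 and 9.29 on ZS, and rose by 0.67 (adjusted p = 0.043). The groups overlapped for Creld2 and not for the other pair. Dnajb11, Edem1 and Manf rose by 0.48, 0.27 and 0.53, and Edem1 did not pass when all its probe sets were averaged (adjusted p = 0.224). The call of Creld2 was lost on omission of any single array other than ZD 12 or ZS 18 (adjusted p up to 0.124), and that of Manf likewise other than ZD 12, ZD 15 or ZS 18 (adjusted p up to 0.116).

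The unfolded protein response acts on such genes through an element spelled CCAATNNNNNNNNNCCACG, searched here on both strands and chosen after the calls were seen. It occurred in 17 of the 11700 promoters (0.15%). Of these 17 genes 3 rose, namely Hspa5, Creld2 and Zfand2a, against 6.94% of all genes, and none fell. Of the 17, 7 were members of the endoplasmic reticulum list. Within that list the element was held by 7 of the 16 members with a promoter. Among its members that rose, it was held by 2 of the 5 with a promoter, which is no larger a share. A link between the element and the increases was not tested. The 250 bases before the start are shown for Hspa5 and Creld2, in RefSeq build GRCr8 on the plus strand. They lie at chr3:38452766-38453015 for Hspa5 and chr7:121789134-121789383 for Creld2. Capitals mark the element, which lies in reverse in Creld2.
Hspa5: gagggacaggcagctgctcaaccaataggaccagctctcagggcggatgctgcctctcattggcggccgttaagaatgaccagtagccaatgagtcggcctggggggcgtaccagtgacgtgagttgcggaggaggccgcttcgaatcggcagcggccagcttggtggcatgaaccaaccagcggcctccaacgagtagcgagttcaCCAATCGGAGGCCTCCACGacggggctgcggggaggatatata
Creld2: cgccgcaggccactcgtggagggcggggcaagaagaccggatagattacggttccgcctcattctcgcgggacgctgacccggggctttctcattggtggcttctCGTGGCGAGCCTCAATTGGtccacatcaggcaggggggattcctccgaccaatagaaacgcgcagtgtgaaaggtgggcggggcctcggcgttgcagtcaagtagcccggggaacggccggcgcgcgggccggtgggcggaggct
Zfand2a, which helps to dispose of misfolded proteins and is no member of that list, rose by 1.35.

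Genes of amino acid supply, many of them targets of a transcription factor of the stress response, rose more often than they fell. Of 28 measured genes 9 rose, 1 fell and 18 did not pass (35.7% called, against 13.9% of all genes), and the median was 0.26. The number that rose was 6 without ZD array 14 and 13 without ZD array 15. Slc7a11, which imports cystine for glutathione, had 9.74, 9.80, 9.47, 9.69 and 9.11 on ZD, against 7.87, 8.23, 8.26, 7.71 and 8.13 on ZS, and rose by 1.52 (SE 0.19). The proline transporter Slc6a20a rose by 1.45 (SE 0.20), the pseudokinase Trib3 by 1.12, asparagine synthetase Asns by 1.10 and the glutamine transporter Slc1a5 by 0.79. Sat1, the rate-setting enzyme of polyamine breakdown, rose by 1.28 and the arginase Arg2 by 0.98. Of 36 glycolysis and hypoxia genes 14 rose and 3 fell (47.2% called, against 13.9% of all genes), with a median of 0.29. The 14 that rose, by up to 1.48, are not named here. With each array left out in turn, 13 to 17 rose. The 3 that fell were the neuronal enolase Eno2 by 1.15, the oxygen sensor Egln3 by 0.91 and the hypoxia factor Epas1 by 0.52. The call of Epas1 was lost when ZD 12 or ZD 14 was omitted (adjusted p up to 0.0765), and its second probe set gave -0.08. Neither Egln3 (adjusted p = 0.0512) nor Epas1 (adjusted p = 0.0684) passed when only the groups compared were fitted.

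**Figure D3:**
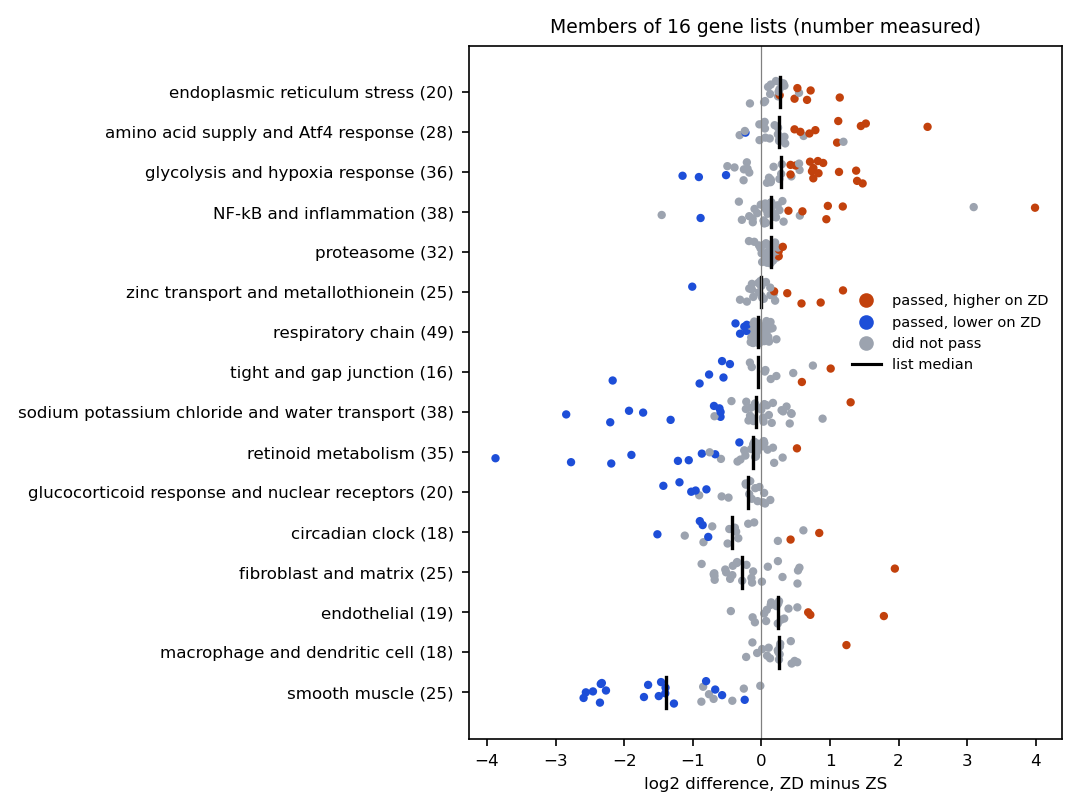
Log2 difference, ZD minus ZS (x axis), of the members of 16 gene lists (y axis, number measured in brackets). Each point is a gene, coloured by whether it passed, and black bars are list medians, from 0.29 for glycolysis and hypoxia to -1.40 for smooth muscle.

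Genes of salt and water transport and of steroid response fell more often than they rose. Of 38 measured genes of sodium, potassium, chloride and water transport 9 fell and 1 rose (26.3% called, against 13.9% of all genes). Their median was -0.08, and 5 fell when ZD 12, ZD 14 or ZS 19 was omitted. Sgk1, a steroid-induced kinase that keeps sodium channels at the membrane, had 10.02, 9.91, 9.49, 9.58 and 10.06 on ZD, against 10.48, 10.29, 10.46, 10.64 and 10.63 on ZS. It fell by 0.69 (SE 0.11, adjusted p = 0.00022). Fxyd4, a regulator of the sodium pump, had 8.51, 7.97, 6.80, 5.82 and 8.68 on ZD, against 10.57, 10.59, 10.42, 10.49 and 9.94 on ZS, and fell by 2.85 (SE 0.57). Hsd11b2, which inactivates glucocorticoids in tissues that respond to aldosterone, had 7.61, 7.27, 6.70, 6.07 and 8.06 on ZD, against 8.64, 8.90, 9.08, 9.14 and 8.57 on ZS, and fell by 1.72 (SE 0.42). The groups were separate for these 3 genes.

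Of 20 genes of glucocorticoid response and nuclear receptors 5 fell and none rose, with a median of -0.20, and 3 fell on omission of any of the same arrays. The glucocorticoid receptor Nr3c1 had 8.19, 7.87, 8.03, 7.70 and 8.26 on ZD, against 8.85, 8.84, 8.55, 9.09 and 8.73 on ZS, and fell by 0.80 (SE 0.15). Its target Tsc22d3 fell by 1.19 (SE 0.31) but did not pass when only the groups compared were fitted (adjusted p = 0.0582). With the smooth muscle covariate Sgk1 passed at -0.61, while Nr3c1 stood at -0.40 (adjusted p = 0.207) and Tsc22d3 at -0.43 (adjusted p = 0.575). Sgk1 did not pass when that fit used arrays of unedited rats only. The bicarbonate cotransporter Slc4a7 was the transport gene that rose, by 1.30. Of 30 calcium and Trp channel genes 4 rose and 7 fell (36.7% called, against 13.9% of all genes), but 2 fell without ZS array 19. The calcium-binding protein S100g rose by 1.11 (SE 0.17), and the endoplasmic calcium release channel Itpr1 fell by 0.98 (SE 0.17). The heat and capsaicin channel Trpv1 fell by 0.75 (SE 0.17), and its other probe sets gave between -0.62 and 0.01.

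Clock genes differed in both directions. Of 18 measured genes 4 fell and 2 rose (33.3% called, against 13.9% of all genes). Their median was -0.43, the lowest of the 52 lists of themes. The number that fell was 3 to 9 with each array left out in turn. Hlf, a transcription factor of clock output, had 6.09, 5.78, 7.0, 6.44 and 7.37 on ZD, against 7.93, 8.06, 8.06, 8.03 and 8.17 on ZS, and fell by 1.52 (SE 0.22). The ZS rats lay close together, and the ZD rats were spread over more than a log2 unit below them. Its relative Tef fell by 0.90, the repressors Cry2 and Per3 by 0.77 and 0.86 (the call of Per3 being lost when ZD 11, ZD 12, ZD 14 or ZS 17 was omitted, adjusted p up to 0.0782), while Clock rose by 0.43 and the repressor Nfil3 by 0.84. A second probe set of Per3 gave -0.05. Neither Per3 nor Nfil3 (adjusted p = 0.0661) passed when only the groups compared were fitted. Dbp, a further output factor (-1.12, adjusted p = 0.0828), Per2 (-0.72, adjusted p = 0.165) and Bmal1 (0.24, adjusted p = 0.518) did not pass. The labels give no hour of tissue collection, so the part of the time of day was not tested.

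Junction genes of the epithelium changed in both directions. Of 16 tight and gap junction genes 6 fell and 2 rose, and 4 fell without ZD array 14. The claudin Cldn10 fell by 2.17 (SE 0.49), occludin, Ocln, by 0.46 (SE 0.11), and Cldn3 and Cldn7 by 0.55 and 0.76, while the gap junction gene Gjb2 rose by 1.01 (SE 0.22) and Cldn1 by 0.59, whose call was lost when ZD 12, ZD 13, ZS 16 or ZS 20 was omitted (adjusted p up to 0.0653). None of 11 desmosome genes passed, against 13.9% of all genes, and 1 rose without ZD array 13. Of the transcription factors, Elf5, known from glandular and squamous epithelia, had 6.68, 6.75, 7.0, 6.86 and 6.77 on ZD, against 7.80, 7.96, 8.28, 7.74 and 7.56 on ZS. It fell by 1.05 (SE 0.15), and Tfap2a rose by 0.61 (SE 0.13). Col17a1, the collagen that anchors basal cells, fell by 0.73 (SE 0.16), the envelope protein Evpl fell by 0.50, and Sprr2d rose by 1.63, a call lost when ZD 14, ZS 16 or ZS 20 was omitted (adjusted p up to 0.0708). Krt14 (0.51, adjusted p = 0.0686), Ivl (-0.54, adjusted p = 0.506) and Sox2 (-0.12, adjusted p = 0.486) did not pass.

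Ligands of the EGF family changed in both directions. The ligands Areg, Ereg and Nrg1 rose by 1.84, 1.09 and 1.13, while Btc, Nrg2 and the receptor inhibitor Lrig1 fell by 0.32 to 0.51. The other probe sets of Nrg1 gave between -0.08 and 1.17. None of the 3 that fell passed without ZD array 13. Btc also failed when ZD 14 was omitted (adjusted p up to 0.0831), Nrg2 when ZD 11, ZD 12, ZS 18, ZS 19 or ZS 20 was (up to 0.130), and Lrig1 when ZD 11, ZD 12, ZD 14, ZS 16, ZS 17 or ZS 19 was (up to 0.149). Neither Nrg2 nor Lrig1 passed when only the groups compared were fitted. In the BMP and TGF-beta list 4 of 39 rose and 3 fell (17.9% called, against 13.9% of all genes), and 5 fell without ZD array 13. Beside Bmp6, these included the inhibitors of DNA binding Id4, which fell by 1.81, and Id1, which rose by 0.95. Fgf13 rose by 1.73 (SE 0.28), and the Notch target Hey2 fell by 1.90 (SE 0.48). Hey2 was the only called gene of 22 in the Notch list (4.55%, against 13.9% of all genes). The median of that list was -0.02, and 10 of the 22 had an estimate above 0. Egr2 fell by 0.89 (SE 0.16), with 0.065 from its second probe set, in the immediate early list, in which Junb and Fosl1 rose by 0.64 and 2.01.

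Lipid genes divided. Of 42 fatty acid genes 6 rose and 5 fell (26.2% called, against 13.9% of all genes). The number that rose was 3 without ZD array 14 or ZS array 16, and the number that fell was 3 without ZD array 14 and 11 without ZD array 15. The lipid droplet coat Plin2 rose by 0.83 (SE 0.16), lipoprotein lipase, Lpl, by 1.15 and the desaturase Scd by 1.41 (a call lost when ZD 12, ZD 14 or ZS 16 was omitted, adjusted p up to 0.0966), while the elongases Elovl6 and Elovl5 fell by 0.67 and 0.19, the second of which did not pass when its probe sets were averaged (adjusted p = 0.494). Cers6, a ceramide synthase, fell by 0.69 (SE 0.13) and Ptgds, a prostaglandin D synthase, by 1.74 (SE 0.26). The inducible cyclooxygenase Ptgs2 had 6.86, 9.14, 7.41, 8.29 and 3.15 on ZD, against 3.08, 3.26, 3.04, 3.04 and 3.09 on ZS, so that ZD array 15 lay among the ZS arrays. It rose, with a measured difference of 3.87 (SE 0.68). On all ZS arrays it lay under the lower quartile of the array, which was 3.75 to 3.82, where a signal was not shown to be above background, so the size of the difference is uncertain. Of 32 proteasome genes 4 rose (12.5%, against 6.94% of all genes for increases and 13.9% for either direction), by 0.25 to 0.31, and none did without ZD array 12 or ZD array 14. Of 49 respiratory chain genes 5 fell, by 0.21 to 0.38 (10.2% called, against 13.9% of all genes). The number that fell was 2 without ZD array 12 and 8 without ZD array 13. None of 20 ribosomal protein genes and none of 28 ribosome biogenesis genes passed, against 13.9% of all genes. Without ZD array 15, 7 ribosome biogenesis genes rose, and 24 of the 28 had an estimate above 0 with all arrays. Of 46 cell cycle genes 1 passed (2.17%, against 13.9% of all genes). It was the cyclin Ccnd2, which fell by 1.22 (SE 0.24), and Mki67 stood at 0.29 (adjusted p = 0.712). The list median was 0.27, 37 of the 46 had an estimate above 0, and 9 rose without ZD array 15. The mean of that list ran from 6.41 to 8.22 over the ZD arrays and from 7.11 to 7.32 over the ZS arrays, so that the ZD rats lay on both sides of the ZS rats.

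Some markers of endothelial cells and few of immune cells passed. Of 19 endothelial genes 3 rose (15.8%, against 6.94% of all genes for increases), and 16 had an estimate above 0. The 3 were Esm1, which rose by 1.79, the receptor Flt1 by 0.71 and the receptor Kdr by 0.68. With the smooth muscle covariate 6 of the 19 rose. The other probe sets of Flt1 gave 0.04 and 0.16, and that of Kdr 0.05. The mean log2 level of the endothelial list, which was not tested, ran from 6.15 to 6.39 over the ZD arrays and from 5.84 to 6.10 over the ZS arrays, with no overlap. Pecam1 stood at 0.40 (adjusted p = 0.218). The call of Kdr was lost when ZD 12, ZD 13, ZD 14, ZS 18 or ZS 19 was omitted (adjusted p up to 0.0783). The pericyte gene Rgs5 rose by 1.38 (SE 0.21), the haemoglobin gene Hbb by 1.62 and the T cell costimulator Icos by 0.87. Each was the only called member of its list, of 8 pericyte, 5 erythroid and 21 T and NK cell genes. These shares were 12.5%, 20.0% and 4.76%, against 6.94% of all genes for increases. Of the 8 pericyte genes 2 had an estimate above 0, and their median was -0.18. The pan-leukocyte gene Ptprc stood at 0.87 (adjusted p = 0.0849). Of 9 neutrophil genes 1 rose (11.1%, against 6.94% of all genes for increases), and 3 did without ZD array 15. That gene, S100a8, which encodes a calcium-binding protein abundant in neutrophils and also made by stressed squamous epithelium, had 11.67, 11.45, 10.72, 10.70 and 8.56 on ZD, against 6.25, 7.21, 9.28, 3.84 and 6.58 on ZS. It rose by 3.99 (SE 0.98, adjusted p = 0.00792), with ZD array 15 below ZS array 18. In the macrophage and dendritic cell list 1 of 18 rose (5.56%), the lysozyme gene Lyz2 by 1.24. Its call was lost on omission of any single array other than ZS 16 (adjusted p up to 0.0893). The untested mean of that list ran from 6.11 to 6.32 over the ZD arrays and from 5.79 to 6.08 over the ZS arrays, so that the groups lay close together without overlap. The part of these cells in the other results was not tested. None of 18 MHC class II and antigen presentation genes and none of 22 interferon response genes passed, against 13.9% of all genes. Slc5a5, the iodide transporter, rose by 1.21 (SE 0.19), while the other 5 measured thyroid genes did not pass. Like Ptgs2, the genes Esm1, S100g and Slc5a5 lay under the lower quartile on all ZS arrays.

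Smooth muscle genes were the group with the largest share of changes. Of 25 measured genes 18 fell and none rose (72.0% called, against 13.9% of all genes). Their median was -1.40, and 15 to 19 fell with each array left out in turn. The myosin Myh11 had 8.92, 7.57, 8.70, 8.32 and 9.81 on ZD, against 11.12, 11.16, 10.61, 12.16 and 11.06 on ZS, and fell by 2.56 (SE 0.50). Cnn1, Myl9, Actg2, Synpo2, Tagln and Mylk fell as well, with differences between -2.27 and -2.59, and Acta2, which fibroblasts also make, fell by 1.27. Of 25 fibroblast and matrix genes none fell and 1 rose (4.0% called), Lox, although 1 fell without ZD array 13. Their median was -0.28, and 8 of the 25 had an estimate above 0.

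When the smooth muscle mean entered the fit as a covariate, 252 genes were called (1.77% of those tested), of which 185 were among the 1974. The median of the 986 genes that rose was then 0.28 and that of the 988 that fell -0.32. The covariate differs between the diets, so this fit takes out diet effect as well, and a call lost in it was not shown to follow muscle content. With the fit limited to arrays of unedited rats, 29 genes were called. With the covariate, 1 member of the endoplasmic reticulum list, 2 of amino acid supply and 3 of glycolysis and hypoxia rose, and none of the zinc list. A single gene each of the retinoid and the salt and water lists and 2 of the clock list fell, and none of the glucocorticoid or junction lists. Genes that passed in that fit included Bmp6 (-1.60), Cyp26b1 (-1.89), Tnfrsf17 (-1.69), Alad (-1.01), Gne (-0.98), P2rx2 (-1.90), Car2 (3.29), Lox (2.26), Cxcl14 (1.86), Irx4 (1.84) and Dnajb9 (0.93). Areg stood at 0.21 (adjusted p = 0.834) and Hey2 at -0.37 (adjusted p = 0.742). Of the genes listed as passing, only Bmp6, Gne and Lox also passed with the fit limited to arrays of unedited rats.

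**Figure D4:**
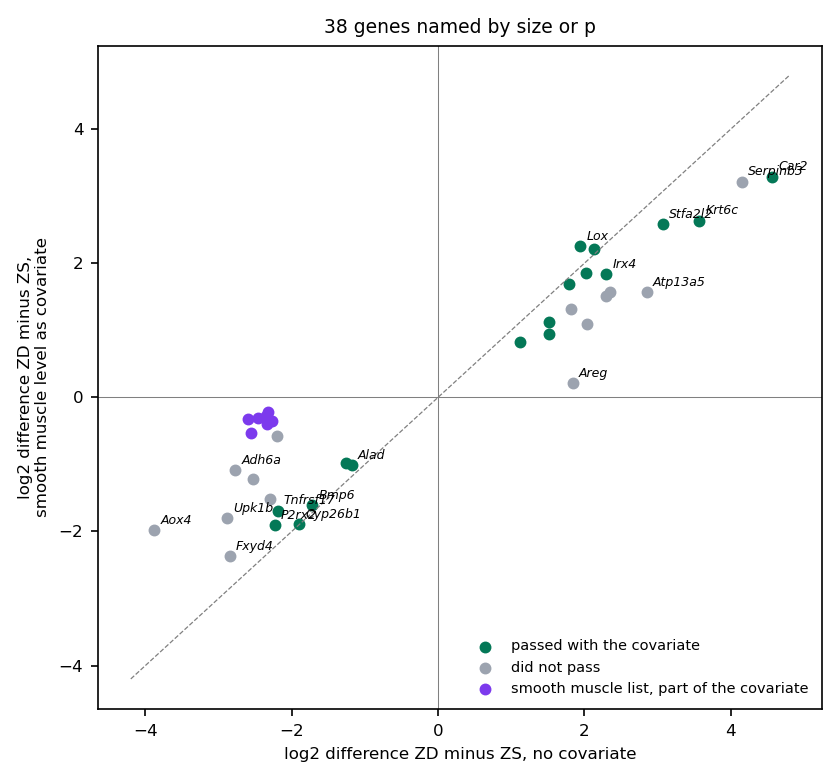
Log2 difference ZD minus ZS without (x axis) and with (y axis) the arrays’ smooth muscle means as covariate, for the 38 genes named by size of change or by p. The dashed line marks equal values. Bmp6 and Cyp26b1 lie on or near it, and the genes of the smooth muscle list lie between -0.22 and -0.53 on the y axis, as they are part of the covariate. Green genes passed with the covariate, grey ones did not, and purple ones are of the smooth muscle list.

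The same diets were compared in the miR-31 knockout rats, which share no array with the unedited rats. There 3049 genes differed (21.4%), with 1347 up (9.47%) and 1702 down (12.0%), and 1566 differed without ZS array 32. This balance depended on the scaling, with 2286 up and 1100 down after median centring and 1666 up and 1529 down after quantile normalization. Of the 986 genes that rose in unedited rats 298 also rose in knockout rats, which is 30.2% of the first list and 22.1% of the second. Of the 988 that fell 251 also fell, which is 25.4% of the first list and 14.7% of the second. In the opposite direction 24 and 35 passed. The median diet effect in knockout rats was 0.19 for the genes that rose in unedited rats and -0.16 for those that fell.

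The diet effect differed between unedited and knockout rats for 1193 genes (8.39%), tested as an interaction, and for 615 without ZS array 32 of the knockout rats. Among them were 182 of the genes that rose and 238 of those that fell in unedited rats. Those genes were chosen by the unedited contrast, which is part of the interaction, so their share cannot be set against that of all genes. Cyp26b1 stood at -1.89 in unedited and 0.39 in knockout rats (difference -2.28, adjusted p = 0.000565), Bmp6 at -1.72 and -0.24, Alad at -1.18 and 0.09, Tnfrsf17 at -2.19 and -0.12, and Dnajb9 at 1.14 and -0.11. Elf5 fell by 1.05 in unedited rats and rose by 0.48 in knockout rats, and Egr2, through the probe set used, fell by 0.89 in unedited and rose by 1.02 in knockout rats. Rps6ka6 rose in both, by 1.51 in unedited and 1.26 in knockout rats (adjusted p of the difference = 0.619). Gjb2 rose by 1.01 in unedited and 1.05 in knockout rats, and Cyp1b1 fell by 1.56 in unedited and 1.10 in knockout rats. The knockout arrays had higher median levels and came from another experiment, so genotype and experiment cannot be told apart.

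**Figure D5:**
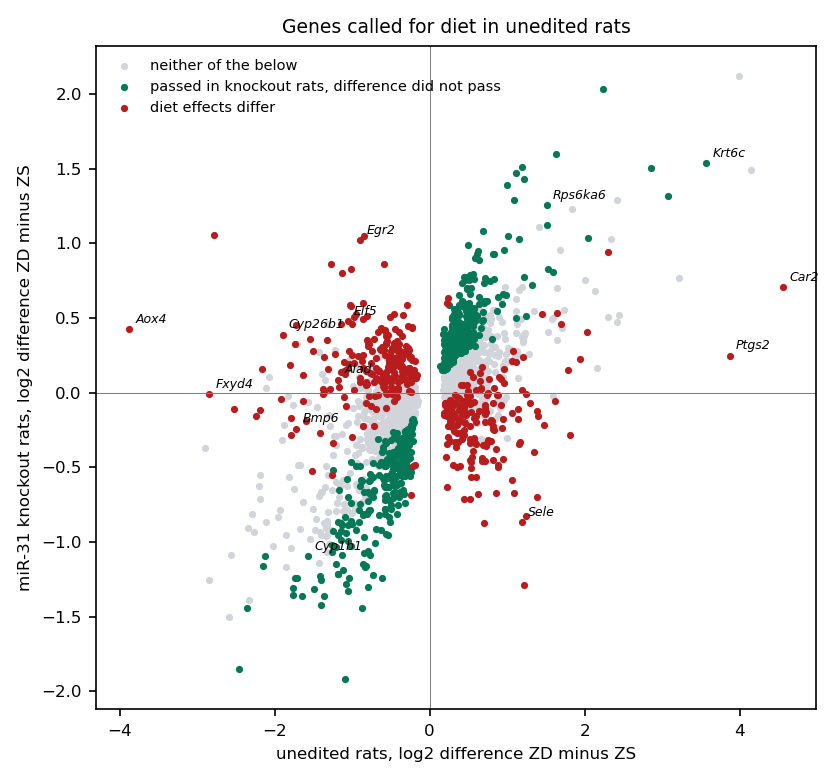
Log2 difference ZD minus ZS in unedited rats (x axis) and in miR-31 knockout rats (y axis) for the 1974 genes called in unedited rats. Red points are genes whose diet effects differ between the genotypes, and green points are genes that passed in knockout rats without such a difference. Grey points are neither.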

How the data were processed

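RNA of oesophageal epithelium was measured on Affymetrix rat arrays. The deposited values are log2 expression levels made with RMA in Affymetrix Expression Console, per the submitters' processing notes with no version stated; the number of arrays limits precision, and no sequencing depth applies. Of 31099 probe sets, 20826 had 1 gene symbol in the platform annotation, 436 several, 9780 none and 57 were controls. The probe set with the highest mean over 30 arrays stood for each of 14217 genes. No array, probe set or value was imputed or dropped.

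limma 3.58.1 in R 4.3.3 fitted 1 coefficient per group (6 groups, 30 arrays), with eBayes and Benjamini-Hochberg adjustment over all 14217 genes, and the script was tested on simulated data. Every adjusted p in the text comes from limma and contrasts 5 ZD with 5 ZS arrays (knockout rats 6 and 4), fewer where an array was left out. Unless another fit is named, the spread was pooled over all 30 arrays. The knockout arrays had higher medians (5.81 to 5.93, against 5.37 to 5.45 on arrays of unedited rats), so levels were not set against each other across the experiments. Tables were handled with pandas 2.3.3 in Python 3.11.15. Promoters and gene IDs came from RefSeq (GRCr8).

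The members and lists were chosen with earlier results of these data known. Genes were named by rule: the 15 largest non-overlapping changes each way, the 10 smallest p, up to 3 called members with the smallest p in each of 70 lists, and a set of markers. The rule named 168, of which 109 are described, and the other 34 genes in the text were chosen after their values were seen: Adh1c, Aldh1a1, Aldh1a2, Asns, Bmal1, Btc, Cldn1, Cldn3, Cldn7, Clock, Creld2, Cyp3a9, Dbp, Dhrs3, Edem1, Egln3, Elovl5, Eno2, Epas1, Hsd11b2, Jchain, Lrig1, Manf, Nfil3, Nrg2, Per2, Per3, Rbp7, Rxrb, Scd, Slc1a5, Slc30a7, Slc39a1 and Zfand2a. Alternatives changed the normalization, filter, eBayes settings, arrays, probe sets and covariates.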

Additional observations from a re-analysis of the deposited data

Results flagged for a closer look

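In 18 of 286 checks of 5 arrays, 1 array stood apart from the other 4, and chance alone does so in about 1 in 20. The log2 levels of the ZD arrays concerned were Car5b 7.67 (array 12), Flt1 5.87 (array 12), Lox 5.82 (array 14), Olfm1 8.76 (array 14), Slc39a1 11.65 (array 13) and Slc39a2 6.48 (array 14). Those of the ZS arrays were Alad 9.32 (array 19), Btc 5.28 (array 17), Car2 7.26 (array 19), Cyp2f4 12.79 (array 19), Eno2 6.60 (array 19), Epas1 10.27 (array 19), Fxyd4 9.94 (array 20), Id4 9.89 (array 19), Mki67 7.96 (array 18), Ptgs2 3.26 (array 17), S100g 2.88 (array 17) and Sod3 8.81 (array 19). ZS array 19 accounts for 7 of these.

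Of the 143 genes described here, 52 had diet effects that differed between unedited and knockout rats in limma's interaction test, adjusted over all genes. Over all genes there were 1193 (8.39%). Of the 143 genes, 127 had been called for diet in unedited rats, and that contrast is part of the interaction. Their share therefore cannot be set against that of all genes. The log2 diet effect in unedited minus that in knockout rats was positive for Car2 (3.85), Cxcl14 (1.63), Dnajb9 (1.25), Esm1 (1.63), Flt1 (0.86), Gstm1 (1.24), Gstm4 (0.57), Hbb (1.68), Hspa5 (0.82), Id1 (1.12), Irx4 (1.35), Kdr (1.12), Lox (1.72), Lpl (1.5), Lyz2 (2.07), Manf (1.24), Olfm1 (2.10), Plin2 (1.08), Ptgs2 (3.62), Ptprc (1.75), Rgs5 (1.51), S100g (0.91), Slc1a5 (1.11), Slc4a7 (1.37), Slc5a5 (0.97) and Slc6a20a (0.92). It was negative for Adh6a (-3.83), Alad (-1.27), Aox4 (-4.30), Bmp6 (-1.48), Btc (-0.46), Ccnd2 (-1.48), Cers6 (-0.79), Cldn10 (-2.32), Cyp26b1 (-2.28), Egr2 (-1.92), Elf5 (-1.53), Elovl6 (-1.07), Fxyd4 (-2.84), Gne (-0.71), Hlf (-0.99), Hsd11b2 (-2.17), Itpr1 (-0.99), Nrg2 (-0.60), Ocln (-0.79), P2rx2 (-2.08), Prr15 (-2.42), Ptgds (-2.07), Sgk1 (-0.86), Slc39a2 (-1.59), Tnfrsf17 (-2.07) and Trpv1 (-0.95). Genotype and experiment cannot be told apart in these differences.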

How the results depend on the processing

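No paired analysis was possible. ZS rats were pair-fed, but each rat has a sample number of its own and the labels match no ZS rat to a ZD rat. The 1974 genes became 252 with the smooth muscle covariate and 29 when that fit used arrays of unedited rats only, an alternative added after seeing the data; the covariate differs between the diets, so both also remove diet effect. With 1 array left out they numbered 1191 (without ZD array 14) to 2424 (without ZD array 15). Under the other alternatives they numbered 1740 to 2501. Of the 127 called genes in the text, 108 passed in all 10 fits without 1 array, 35 with the covariate and 7 with it in unedited rats only, and 116 when only the groups compared were fitted. In knockout rats 1413 genes were called with the covariate, and 1566 (without ZS array 32) to 3244 (without ZS array 30) with 1 array left out. The interaction gave 615 to 1519 on omission of the same arrays. Median centring moved the share of increases among called genes to 67.5% in knockout rats, against 44.2%, and to 36.2% in the interaction, against 55.0%. The sign turned for Acta2, a called gene that is itself part of the smooth muscle covariate and stood at 0.0775 with it, and for genes that had not passed, and none passed with the other sign. With median centring Krt13 stood at 0.0188, Krt4 at 0.0012, Slc39a4 at 0.0022 and Tp63 at 0.0175. Tp63 stood at 0.0573 with array weights and 0.0689 with the mean of probe sets. Krt5 stood at -0.0564 after quantile normalization and -0.0035 with a skeletal muscle covariate. With the smooth muscle covariate, Ivl stood at 0.0363, Sox2 at 0.0523 and Tp63 at 0.0294, and in unedited rats only Ivl stood at 0.1292, Sox2 at 0.151 and Tp63 at 0.1338. With 1 array left out, Krt13 ran from -0.0103 to 0.0119, Krt4 from -0.0479 to 0.001, Krt5 from -0.1489 to 0.1303, Slc39a4 from -0.0969 to 0.0362 and Tp63 from -0.0454 to 0.0844. The cause of these shifts was not tested.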
